A study of Sus scrofa with 6 samples.

Results

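The genes described here encode the subunits of the respiratory chain and of the ATP synthase, together with some of their assembly factors. They were chosen by name, as the gene symbols that start with NDUF, UQCR, ATP5, SDHA to SDHD or COX followed by a digit, or that equal CYC1 or CYCS. Of 6765 genes with a symbol of their own on the array, 66 met this rule. By symbol, 36 belong to complex I, 5 to complex II, 2 to complex III, 8 to complex IV and 14 to complex V, and CYCS encodes cytochrome c. They were compared between cells grown at the air-liquid interface (ALI; "ALi" in the labels) and cells in submerged membrane culture (SMC), with 3 arrays of each.

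Both groups were IPEC-1 cells ("IPEC1" in the labels), an untransformed epithelial line from the small intestine of newborn piglets, grown on porous membrane inserts. Serum was withdrawn stepwise from both, and both media held insulin, transferrin, selenium and epidermal growth factor. The groups differed in how much medium stood above the cell layer, which was little more than moisture in ALI and a full depth of fluid in SMC. Each of the passages P109, P111 and P113 gave 1 ALI and 1 SMC array, numbered replicates 1, 2 and 3 in that order, so that p-values measure the spread between passages of 1 cell line. RNA was hybridized to GeneChip Porcine Genome Arrays, and the values are log2 signals per probe set (a group of short probes against 1 transcript).

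The respiratory chain passes electrons from NADH (complex I) or succinate (complex II) through ubiquinone to complex III, and from there by cytochrome c to complex IV, cytochrome c oxidase, which reduces oxygen. Complexes I, III and IV pump protons out of the mitochondrial matrix, and complex V, the ATP synthase, lets them flow back and makes ATP. Core subunits of complexes I, III and IV are encoded in mitochondrial DNA, and all genes described here lie in the nucleus. Enterocytes use this pathway to fuel the uptake of nutrients, and under low oxygen cells exchange or remove some of its subunits. The comparison asks whether the transcripts of this oxygen-consuming pathway differed between the culture forms.

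The median log2 signal per array lay between 6.34 and 6.39. As a rough limit of detection the 25% quantile of each array was used (4.52 to 4.62), and all 66 genes exceeded it on all 6 arrays. Of 8 measured epithelial markers, 8 exceeded this quantile on every array, among them EPCAM at mean log2 signals of 13.39 in ALI and 13.32 in SMC cells. The median of every array was exceeded by 6 of the 8, and 4 had a difference above 0. VIL1 was at 6.12 in ALI and 6.56 in SMC cells, a log2 difference of -0.45 (adjusted p = 0.332 from limma). The labels' free text names liver although their source is jejunum. Of 6 hepatocyte markers, 3 exceeded the quantile on every array. They were ALB at 8.28 in ALI and 8.58 in SMC cells, SERPINA1 at 8.18 and 8.62, and TTR at 5.29 and 5.05. ALB and SERPINA1 also exceeded the median of every array, while FGB was at 3.52 and 3.54. Of the markers of other cell types, 3 of 5 exceeded it for fibroblasts, 2 of 5 for endothelium, 2 of 3 for immune cells and 3 of 5 for striated muscle. Among fibroblast markers, COL1A2 was at 7.56 in ALI and 7.33 in SMC cells and PDGFRB at 7.55 and 8.05, while LUM was at 3.29 and 3.30. PTPRC, which defines immune cells, was at 3.49 and 3.57, and CDH5 of endothelium at 3.85 and 3.83. A single marker passed the test described next, PECAM1, which was lower in ALI cells at a log2 difference of -0.50 (adjusted p = 0.0448, from limma). The summed linear signal of the 5 endothelial markers was 221 to 263 in ALI and 281 to 308 in SMC cells. Of these 5 markers, 3 had a difference above 0 (VWF, CDH5 and TEK) and the list's median was 0.02. CDH5 and KDR lay below the 25% quantile on every array, and TEK on every array except ALI replicate 3. The 2 markers above it on every array were PECAM1 and VWF, and the difference of VWF was 0.08 (standard error 0.14). Whether the endothelial markers shared the direction of PECAM1 therefore cannot be read from these signs. The part of other cell types in the results was not tested.

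At an adjusted p under 0.05 (limma, with the Benjamini-Hochberg adjustment across 23999 probe sets), 1 of the 66 genes rose in ALI compared with SMC cells, NDUFA4, and 0 fell. Over all genes, 1.02% rose and 1.51% fell (2.53% together), so that the share of 1.52% of the 66 genes lay near the background. With the passage as a block the counts were again 1 and 0, while 2.25% of all genes were then higher and 3.75% lower. At an unadjusted p under 0.05, 7 of the 66 genes were higher and 2 lower (10.6% and 3.03%), against 7.10% and 8.91% of all genes. The methods' t-test gave 10 and 4 at an unadjusted p of at most 0.05, against 7.10% and 7.07% of all genes. After adjustment it gave 0 in both directions, as it did over all genes (0.00%). None of the 66 genes, and none of 58 mitochondrial ribosomal proteins, reached a 1.5-fold difference, which 5.04% of all genes did. In RNA of whole cultures, fewer cells of a type and less RNA per cell cannot be told apart.

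**Figure D1:**
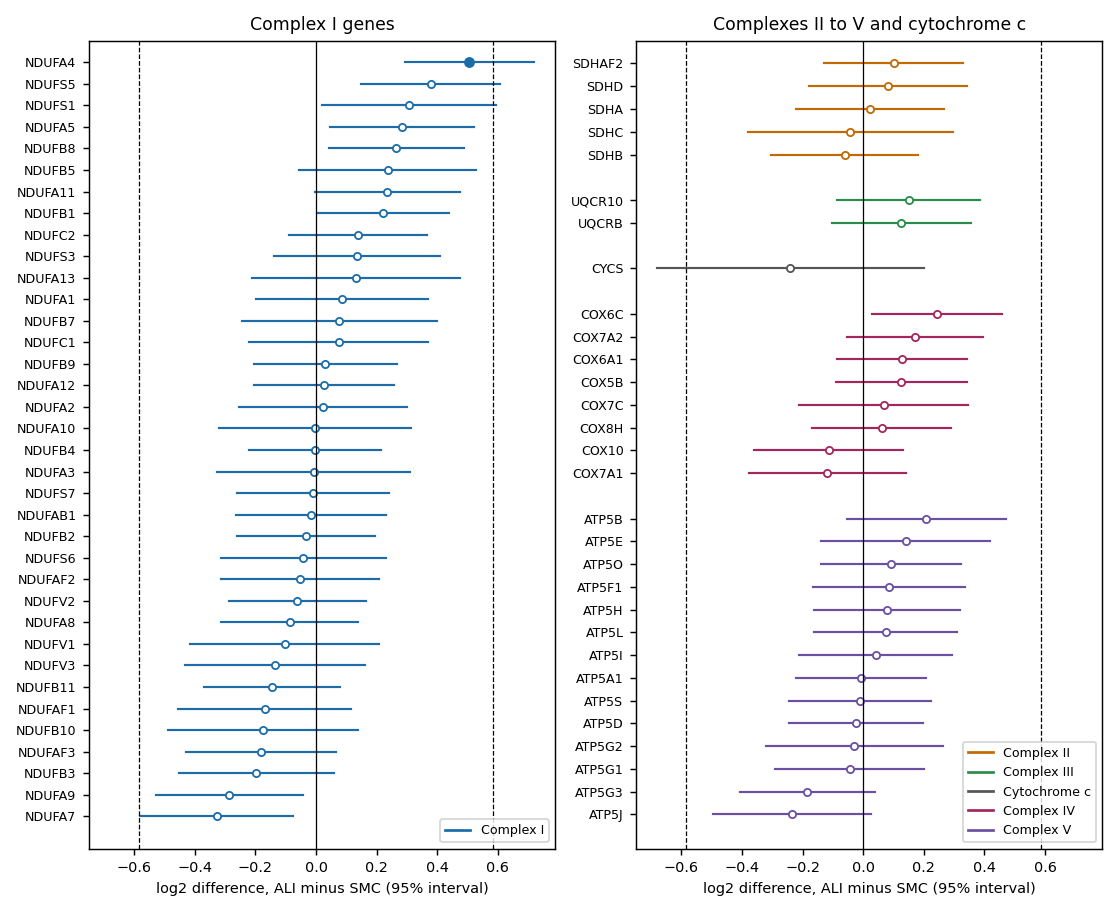
Log2 difference (ALI minus SMC, x axis) of each of the 66 genes, as points with limma's 95% interval as lines, for complex I on the left and the other complexes on the right. The filled point is NDUFA4, the only gene with an adjusted p under 0.05, and dashed lines mark a 1.5-fold difference in either direction; 62 of the 66 intervals lie between them.

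The intervals of the differences were narrow. For 62 of the 66 genes (93.9%) the 95% interval lay within a 1.5-fold difference in either direction. This held for 94.8% of 58 mitochondrial ribosomal proteins and for 76.1% of all genes, so that it was not particular to the 66 genes. These intervals hold for 1 gene each and were not adjusted for their number. The 4 genes with an interval that went past 1.5-fold were NDUFA4, NDUFS5 and NDUFS1 on the upper side and CYCS on the lower. The median replicate SD of the 66 genes was 0.0997 log2 units, against 0.152 over all genes. The median difference was 0.02 over the 66 genes and 0.01 over all genes, with 35 of the 66 genes above 0 and 31 below, so that the transcripts had no common direction.

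NDUFA4 encodes a small protein that was first assigned to complex I and later found in cytochrome c oxidase. Its log2 signals were 11.99, 11.93 and 11.92 on ALI replicates 1 to 3 and 11.47, 11.42 and 11.43 on SMC replicates 1 to 3. All ALI arrays lay above all SMC arrays, and the gap between the groups was wide beside the spread within them. The difference was 0.51 (standard error 0.09, 95% interval 0.29 to 0.72), a 1.42-fold higher signal in ALI cells with an adjusted p of 0.0370 from limma. Within the passages the difference was 0.52, 0.50 and 0.49. Leaving out any 1 of the 6 arrays kept the difference between 0.48 and 0.52 but ended the call (adjusted p 0.0602 to 0.159 from limma). The adjusted p was 0.0809 with the methods' t-test, which called no gene of the whole array, and 0.0161 to 0.0394 under the other alternatives. Its hypoxia-linked relative NDUFA4L2 had no probe set with that symbol and was not analysed here.

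**Figure D2:**
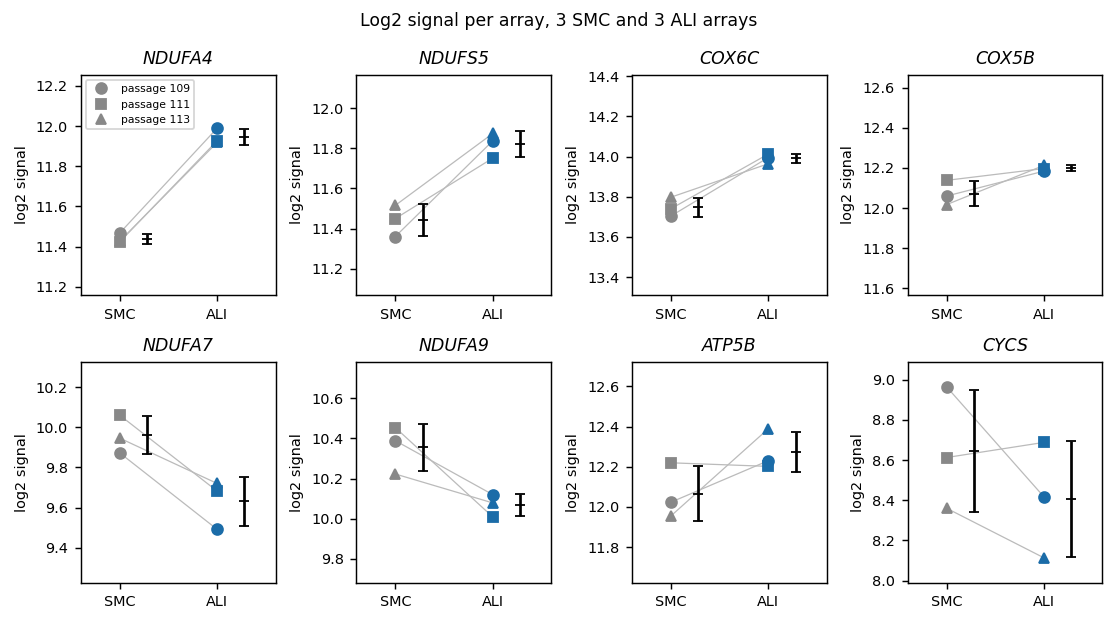
Log2 signal (y axis, the same span of 1.1 units in each panel) of 8 genes on the 3 SMC (grey) and 3 ALI (blue) arrays. Symbols mark the passage, grey lines join arrays of the same passage, and the black bars give the mean and SD of 3 arrays; NDUFA4 shows a gap between the groups that is wide beside the spread, while the arrays of CYCS overlap.

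In complex I, which oxidizes NADH, 17 of 36 genes had a difference above 0 and 19 below, with a median of 0.00. After NDUFA4, the most positive was NDUFS5, an accessory subunit of the membrane arm. Its log2 signals were 11.84, 11.75 and 11.87 in ALI and 11.36, 11.45 and 11.52 in SMC cells. The groups did not overlap, but the difference of 0.38 (standard error 0.10, 95% interval 0.15 to 0.61) did not pass (adjusted p = 0.120, limma; 0.0851 with the passage as a block).

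NDUFA7 and NDUFA9, accessory subunits of the matrix arm that carries the NADH site, had the most negative differences. NDUFA7 gave log2 signals of 9.49, 9.68 and 9.72 in ALI and 9.87, 10.06 and 9.95 in SMC cells. Its difference was -0.33 (95% interval -0.58 to -0.07, adjusted p = 0.220 from limma). For NDUFA9 the signals were 10.12, 10.01 and 10.08 in ALI and 10.39, 10.45 and 10.22 in SMC cells. This is a difference of -0.29 (95% interval -0.53 to -0.04, adjusted p = 0.263 from limma). Both genes had separate groups, with every ALI array below every SMC array, and neither passed the test.

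A further 4 genes of complex I, chosen after their values were seen, had an unadjusted p under 0.05 and an adjusted p that did not pass. NDUFS1, the largest iron-sulfur subunit of the core, had a difference of 0.31 (95% interval 0.02 to 0.59). NDUFA5 of the matrix arm stood at 0.28, and NDUFB8 and NDUFB1 of the membrane arm at 0.27 and 0.22, with adjusted p from 0.255 to 0.343 in limma. In each of these genes the ALI arrays lay above the SMC arrays. Among the 5 measured core subunits, all of the NDUFS and NDUFV series, the differences ran from -0.10 for NDUFV1, which accepts the electrons of NADH, to 0.31 for NDUFS1, with a median of -0.01. The 12 genes of the matrix arm had a median of -0.03 and the 19 of the membrane arm one of 0.07, with 5 and 11 genes above 0. The 10 measured NDUFB genes, all of the membrane arm, ranged from -0.20 for NDUFB3 to 0.27 for NDUFB8. The assembly factors NDUFAF1, NDUFAF2 and NDUFAF3 had differences of -0.17, -0.05 and -0.18.

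Complex II, succinate dehydrogenase, is shared with the citrate cycle, and its 4 subunits were all measured. None of them passed in limma, also at an unadjusted p under 0.05. The adjusted methods' t-test, which called none of the 6765 genes, cannot add to this. Its flavoprotein SDHA had log2 signals of 10.42, 10.38 and 10.51 in ALI and 10.33, 10.55 and 10.36 in SMC cells, which overlapped. The difference was 0.02 (95% interval -0.22 to 0.27). The iron-sulfur subunit SDHB and the membrane anchors SDHC and SDHD had differences of -0.06 (95% interval -0.30 to 0.18), -0.04 (-0.38 to 0.30) and 0.08 (-0.18 to 0.34). For SDHC, ALI replicate 2 stood at 9.83 against 10.32 on both other ALI arrays, and without it the difference was 0.12. SDHAF2, which inserts the flavin into SDHA, had a difference of 0.10 (-0.13 to 0.33). A second probe set of SDHA gave -0.27 (unadjusted p = 0.0272, adjusted p = 0.268, limma), so that the probe sets of this gene disagree.

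Complex III, which passes electrons from ubiquinone to cytochrome c, was represented by small accessory subunits alone. UQCR10 had log2 signals of 12.42, 12.36 and 12.53 in ALI and 12.19, 12.34 and 12.33 in SMC cells. UQCRB had 11.67, 11.77 and 11.81 in ALI and 11.69, 11.54 and 11.64 in SMC cells. The differences were 0.15 (95% interval -0.09 to 0.39) and 0.13 (-0.10 to 0.36), with adjusted p of 0.569 and 0.630 from limma. The arrays of UQCR10 did not overlap and those of UQCRB did. The probe set of UQCRB is of a type that can match transcripts of related genes. CYC1, the cytochrome c1 of this complex, had no probe set of that symbol and is not analysed here.

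CYCS, the mobile electron carrier cytochrome c, which also takes part in apoptosis, had log2 signals of 8.42, 8.69 and 8.11 in ALI and 8.96, 8.61 and 8.36 in SMC cells. The groups overlapped, and the difference of -0.24 (standard error 0.19, adjusted p = 0.631 from limma) had the widest interval of the 66 genes, from -0.68 to 0.20. Within the passages it was -0.55, 0.08 and -0.25, so that the passages did not share a direction.

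In complex IV, 6 of 8 genes had a difference above 0, with a median of 0.10. None passed, and 1 had an unadjusted p under 0.05 in limma, COX6C. Its log2 signals were 14.00, 14.01 and 13.96 in ALI and 13.70, 13.74 and 13.80 in SMC cells, without overlap. The difference was 0.24 (standard error 0.09, 95% interval 0.03 to 0.46, adjusted p = 0.283 from limma). COX5B, a zinc-binding subunit, had log2 signals of 12.18, 12.20 and 12.21 in ALI and 12.06, 12.14 and 12.02 in SMC cells. Here too every ALI array lay above every SMC array, at a difference of 0.13 (95% interval -0.09 to 0.34, adjusted p = 0.606 from limma), and the interval leaves out a 1.5-fold rise or fall. The difference of COX5B was above 0 in each passage, at 0.12, 0.06 and 0.20.

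The widely expressed isoforms COX7A2 and COX6A1 also had separate groups, with differences of 0.17 (95% interval -0.05 to 0.39) and 0.13 (-0.09 to 0.34). COX7A1, the isoform of subunit 7A in heart and skeletal muscle, had log2 signals of 5.51, 5.23 and 5.28 in ALI and 5.37, 5.51 and 5.49 in SMC cells, which overlapped at a difference of -0.12 (-0.38 to 0.14). COX8H, the heart isoform of subunit 8, had a difference of 0.06, and COX7C one of 0.07. COX10, which takes part in the synthesis of the heme A of the enzyme, had a difference of -0.11 (-0.36 to 0.13) and is no subunit. With COX10 left out and NDUFA4 counted with complex IV, the median of the complex was 0.13 instead of 0.10. The isoforms COX4I1 and COX4I2, of which cells exchange one for the other under low oxygen, had no probe set of their own name and are not analysed here.

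In complex V, 7 of 14 genes had a difference above 0, the median was 0.02, and none passed, also at an unadjusted p under 0.05 in limma. Among the 14, ATP5S is no subunit and had a difference of -0.01. With subunits only, the median was 0.04. ATP5B, the catalytic beta subunit of the F1 head, had log2 signals of 12.23, 12.20 and 12.39 in ALI and 12.02, 12.22 and 11.96 in SMC cells. These overlapped through replicate 2, where the difference was -0.02 against 0.21 and 0.43 in the other passages. Its difference over all arrays was 0.21 (95% interval -0.05 to 0.47, adjusted p = 0.456 from limma). ATP5A1, the alpha subunit of the same head, had a difference of -0.01 (-0.22 to 0.21), and ATP5E, the epsilon subunit of the central stalk, one of 0.14 (-0.14 to 0.42).

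The c ring, which turns with the proton flow, is made of a protein that 3 genes encode. ATP5G3 had log2 signals of 12.57, 12.58 and 12.58 in ALI and 12.82, 12.79 and 12.67 in SMC cells. Its ALI arrays lay below its SMC arrays, at a difference of -0.18 (95% interval -0.41 to 0.04, adjusted p = 0.434 from limma). ATP5G1 and ATP5G2 had -0.05 and -0.03, with overlapping arrays. In the peripheral stalk, which holds the F1 head in place, coupling factor 6 (ATP5J) had log2 signals of 10.26, 10.56 and 10.42 in ALI and 10.61, 10.73 and 10.59 in SMC cells. Its difference was -0.23 (-0.50 to 0.03, adjusted p = 0.398 from limma), without overlap, while ATP5F1, ATP5H and ATP5O of the same stalk had 0.08, 0.08 and 0.09.

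Without a threshold on p, the groups did not overlap for 13 of the 66 genes in the higher direction (19.7%) and for 6 in the lower (9.09%). Over all genes these shares were 11.0% and 10.9%. Of the 13 genes, 8 carry a complex I symbol, 4 are subunits of complex IV and 1 is of complex III. Of the 6 genes, 4 belong to complex I (NDUFA7, NDUFA9, NDUFB3 and NDUFB11) and 2 to complex V (ATP5G3 and ATP5J). In complex IV, 4 of 8 genes were apart in the higher direction, COX5B, COX6A1, COX6C and COX7A2, and none in the lower. As the members were read with earlier results known, and share arrays, no test was made of these counts.

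The arrays of a group did not vary alike. The median difference of the 66 genes was 0.06 at passage P109, -0.07 at P111 and 0.14 at P113, where that of all genes was 0.00, -0.03 and 0.05. Of the 66 genes, 40, 23 and 52 were above 0 in these passages, as were 3434, 3031 and 3911 of all 6765 genes. The 58 mitochondrial ribosomal proteins were also lowest at P111 and highest at P113. Their medians were -0.11, -0.14 and 0.16, with 18, 10 and 44 genes above 0. ALI replicate 2 was the lowest of the ALI arrays for 43 of the 66 genes (65.2%, against 39.7% of all genes), and ALI replicate 3 was the highest for 50 (75.8%, against 45.3%). Among SMC arrays, replicate 2 was the highest for 33 genes (50.0%, against 32.8%). Of the 66 genes, 19 were higher in ALI cells in all 3 passages and 8 were lower, which is 28.8% and 12.1% against 23.2% and 21.0% of all genes.

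**Figure D3:**
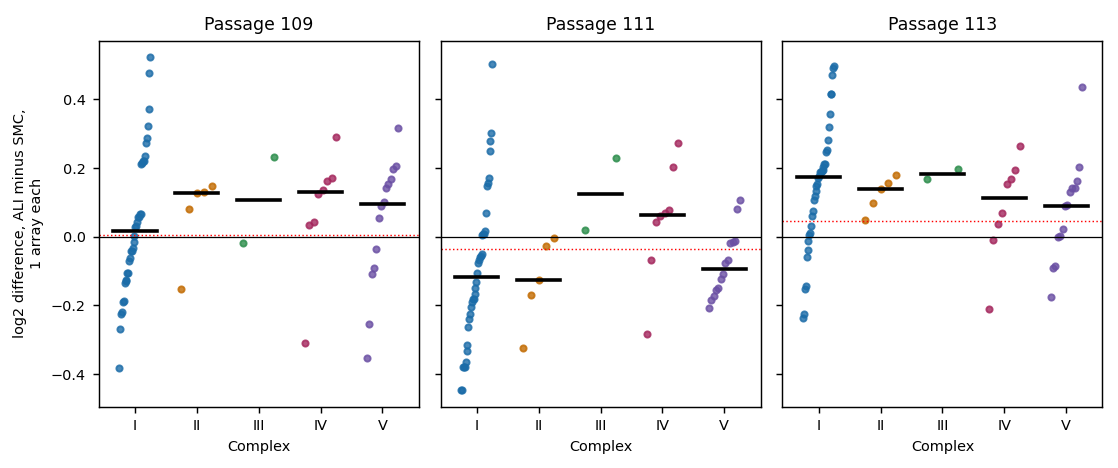
Log2 difference (ALI minus SMC, y axis) within each passage, with 1 point per gene by complex (x axis), black bars for the median of a complex and a dotted red line for the median of all genes. At passage P111 the medians of complexes I, II and V lie below 0, and at passage P113 those of all 5 complexes lie above 0.

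By complex, the passages gave medians for complex I of 0.02, -0.12 and 0.17, for complex II of 0.13, -0.13 and 0.14, and for complex V of 0.10, -0.09 and 0.09. The medians of complex IV were 0.13, 0.06 and 0.11, and those of the 2 genes of complex III 0.11, 0.13 and 0.18. Medians of complexes I, II and V thus lay on both sides of 0, while those of complexes III and IV stayed above it. The genes of a complex were measured on the same arrays and are no replicates of it, and the difference between complexes was not tested.

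**Figure D4:**
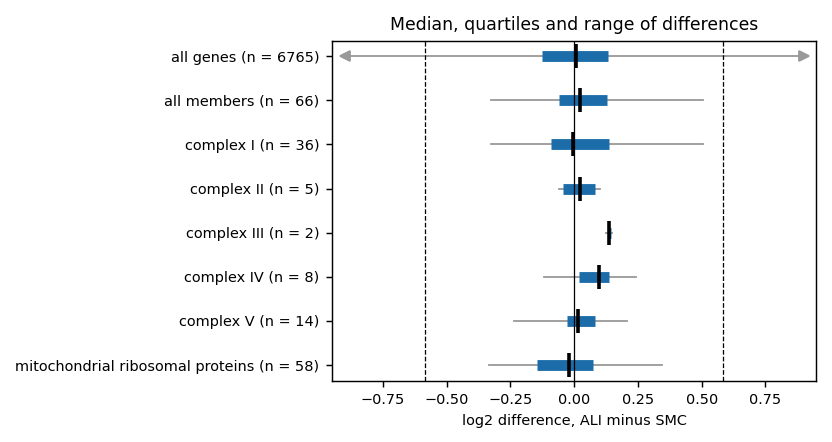
Median (black tick), middle part between the quartiles (blue) and range (grey line) of the log2 differences (ALI minus SMC, x axis) for all genes, the 66 genes, each complex and the mitochondrial ribosomal proteins. Arrowheads mark ranges that go on beyond the axis, dashed lines mark a 1.5-fold difference, and the range of the 66 genes, -0.33 to 0.51, lies between them.

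More than 1 probe set was present for 16 of the 66 genes, and for 10 of these the probe sets differed in sign. Of the remaining 19 probe sets, 0 passed in limma, against 1.90% of all probe sets on the array. Of them, 2 had an unadjusted p under 0.05, the second probe set of SDHA and a dim one of ATP5L, subunit g of the ATP synthase. The latter had a difference of -0.46 (adjusted p = 0.156) at log2 signals of 4.40 to 4.84 in ALI and 5.07 to 5.21 in SMC cells, partly below the 25% quantile, while the brightest probe set of ATP5L gave 0.07. NDUFS3, a core subunit of the matrix arm, had 0.13 in its brightest probe set and 0.04 and -0.27 in the others.

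The pathway around the complexes was read from lists of other genes. Of 62 such genes, 3 fell in ALI cells and 0 rose in limma, where 1.51% and 1.02% of all genes did. At an unadjusted p under 0.05, 8 were lower and 3 higher (8.91% and 7.10% over all genes). With the passage as a block 3 were lower and 2 higher (3.75% and 2.25% over all genes). None of 15 assembly factors outside the naming rule passed, nor did any of 12 regulators of mitochondrial biogenesis, among them the mitochondrial transcription factor TFAM at -0.21 (95% interval -0.63 to 0.22). PRKAA1, a catalytic subunit of the energy sensor AMPK that was picked after its values were seen, had 7.44, 7.40 and 7.08 in ALI and 7.69, 7.89 and 7.71 in SMC cells. Its ALI arrays lay below its SMC arrays, at a difference of -0.46 (-0.75 to -0.16, adjusted p = 0.140 from limma, 0.0639 with the block). PRKAA2, also a catalytic subunit of AMPK, had a difference of 0.17 (-0.23 to 0.57). Of 10 hypoxia-linked regulators of respiration none passed either. Their median difference was -0.15, with 2 of the 10 above 0. The lowest differences among them were those of EGLN1, an oxygen sensor of the HIF pathway, and LONP1, a protease of the mitochondrial matrix. EGLN1 had -0.68 (95% interval -1.21 to -0.16, adjusted p = 0.219 from limma). LONP1 had -0.44 (-0.71 to -0.16, adjusted p = 0.138 from limma). Of 58 mitochondrial ribosomal proteins, which translate the mitochondrially encoded subunits, 0 passed in limma and 4 had an unadjusted p under 0.05, all lower (6.90%, against 8.91% of all genes), with a median difference of -0.02. For the mitochondrially encoded subunits no probe set was matched by name, and they are not analysed here.

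Of 11 genes of electron entry and ubiquinone synthesis, GPD2 was lower. It encodes the mitochondrial glycerol-3-phosphate dehydrogenase, which feeds electrons from the cytosol to ubiquinone. Its log2 signals were 5.32, 5.51 and 5.45 in ALI and 6.27, 5.96 and 6.56 in SMC cells, a difference of -0.83 (standard error 0.16, adjusted p = 0.0399 from limma). The arrays did not overlap. The call of GPD2 was lost without any 1 array other than SMC replicate 2 (adjusted p up to 0.161) and with the methods' t-test (0.270).

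Of 15 carriers and channels, 2 were lower, the citrate carrier SLC25A1 and the outer membrane channel VDAC3. SLC25A1 had log2 signals of 9.06, 8.92 and 9.14 in ALI and 9.77, 9.56 and 9.59 in SMC cells, a difference of -0.60 (adjusted p = 0.0370 from limma). The groups of SLC25A1 did not overlap. VDAC3 had 9.83, 9.92 and 9.76 in ALI and 10.80, 10.33 and 10.63 in SMC cells, again without overlap, at a difference of -0.75 (adjusted p = 0.0348 from limma). The call of SLC25A1 was lost without any 1 array other than ALI replicate 3, and that of VDAC3 without any 1 other than SMC replicate 2 (adjusted p up to 0.131 for both). That of VDAC3 was also lost after quantile normalization (0.0531), and both were lost with the methods' t-test (0.195 and 0.242).

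ATPIF1, the inhibitor of the ATP synthase when it runs in reverse, and MPC1, a subunit of the mitochondrial pyruvate carrier, were not called without the block, and were called with it. ATPIF1 had log2 signals of 10.95, 10.83 and 11.22 in ALI and 10.42, 10.50 and 10.57 in SMC cells, a difference of 0.50 (adjusted p = 0.103 from limma, 0.0416 with the block). MPC1, which was also called after quantile normalization (adjusted p = 0.0464), had 10.52, 10.46 and 10.75 in ALI and 9.92, 10.12 and 10.09 in SMC cells, a difference of 0.53 (adjusted p = 0.0727, 0.0352 with the block). In both genes every ALI array lay above every SMC array. MPC2, also a subunit of the pyruvate carrier, had a difference in the other direction, -0.27 (standard error 0.14). Its arrays overlapped, and it was not called (adjusted p = 0.435 from limma, 0.208 with the block). The measured subunits of this carrier thus did not share a direction.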

How the data were processed

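The samples and arrays are those named above. According to the methods, the authors normalized the arrays by GC-RMA (R package gcrma) after GCOS, and version 1.1.1 of that software stands in the submitters' processing notes. Values in the deposited table are on the log2 scale, with no normalization named, and were not scaled again. After removal of 124 control probe sets, 23999 probe sets were fitted with limma 3.58.1 in R 4.3.3, with culture type as the only factor. In data simulated without a passage effect, the fit recovered 79 of 200 changes of 0.585 log2 units (39.5%) and 156 of 200 of 1 log2 unit. With the passage as a block these counts were 16 and 129, so that many changes of 1.5-fold were missed in this simulation. As it holds no passage effect, it does not measure what the block recovers in these data. Symbols came from the platform annotation, and a gene's brightest probe set stood for it. Of the probe sets, 10069 had 1 symbol, 13732 had none and 198 had several, of which 5 held a symbol of the rule and were left out. All 66 genes matched a RefSeq record. No low-value filter was applied, and the number of arrays limits the precision. The smallest p of an exact two-sided permutation test with 3 arrays a group is 0.1.

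Named are genes called with or without the block, the 2 highest and 2 lowest differences of each complex, COX5B, CYCS, CYC1, and the pairs of COX4 and NDUFA4, and others for their role or after their values were seen. The members and lists were chosen with earlier results of these data known. By the labels 1 ALI and 1 SMC array share a passage, and deviations from the group means of such arrays correlated at 0.340, 0.140 and 0.451 across probe sets, and those of other ALI and SMC arrays at -0.424 to 0.219. The highest value of unmatched arrays (0.219) was thus above the lowest of matched arrays (0.140). The main fit left the pairing by passage out, and the block was run as an alternative because the shared passage stands in the labels. Alternatives were quantile normalization, median centring, filters at mean log2 signals above 4 and 6, an intensity trend, the passage as a block, the mean over probe sets, the methods' t-test and leaving out each array. Counts for genes outside the rule under these alternatives were added after seeing the data.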

Additional observations from a re-analysis of the deposited data

How the results depend on the processing

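Of the 66 genes, 1 was higher and 0 were lower with the replicate block (passage), after quantile normalization or median centring, with an intensity trend, with the mean over probe sets and with filters at mean log2 signals above 4 and 6. The higher filter left out COX7A1. The count of higher genes was 0 to 0 when 1 array was left out and 0 with the adjusted methods' t-test, whereas at its unadjusted p of at most 0.05 the t-test gave 10 higher and 4 lower. Of the 62 genes outside the rule, 0 were higher and 3 lower. With the block 2 were higher, after quantile normalization 1 was higher, with the adjusted t-test 0 were lower, and without 1 array 0 to 2 were lower. The medians of the 5 complexes moved by less than the SD of their 3 passage medians under all alternatives run. For complexes I and II this SD (0.146 and 0.149) was larger than the median, so that a change of sign stayed within it. Under the alternatives the median of complex I ran from -0.065 to 0.064 and that of complex II from -0.02 to 0.12. SDHB turned from -0.06 to 0.09 with the mean over its probe sets, and SDHC from -0.04 to 0.12 without ALI replicate 2 and to 0.00 after quantile normalization; the cause was not tested. Of differences that did not pass, SDHD went from 0.08 to 0.01 without ALI replicate 3, CYCS from -0.24 to -0.09 without ALI replicate 3 and to -0.08 without SMC replicate 1, and ATP5E from 0.14 to 0.06 without SMC replicate 1. With 3 arrays per group, the 95% interval of a gene was 0.493 log2 units wide in the median of the 66 genes, which limits the differences that can be called.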
